A study of Mus musculus with 24 samples.

Results

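The cell-to-cell adhesion genes of the cardiac intercalated disc, together with desmin, were described in the left ventricle of mice with angiotensin II (ANG II)-induced hypertension. The genes were chosen by symbol: desmoplakin (Dsp), plakophilin 2 (Pkp2), plakoglobin (Jup), desmoglein 2 (Dsg2), desmocollin 2 (Dsc2), N-cadherin (Cdh2), alpha-E-catenin (Ctnna1), alpha-T-catenin (Ctnna3), beta-catenin (Ctnnb1) and desmin (Des). All 10 were in the deposited table of 14912 genes and all 10 were tested. The hypertensive-LVH group (LVH, left ventricular hypertrophy) held 12 wild-type C57BL/6J male mice given ANG II from a subcutaneous osmotic pump (1500 ng/kg/min, 7 days), and the control group held 12 wild-type mice of that strain and sex that received saline for the same time. The hearts of both groups were flushed with saline before the left ventricle was taken, and each library came from a single mouse. Further mice of the study were not analysed here. Because bulk tissue was sequenced, fewer cells of a type and less RNA per cell cannot be told apart in any value below.

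The intercalated disc joins cardiomyocytes end to end. Its desmosomes bind the desmosomal cadherins of neighbouring cells to plakoglobin and plakophilin, and desmoplakin ties this plaque to desmin, the muscle intermediate filament that runs from the disc to the Z-discs. In its adherens junctions N-cadherin holds beta-catenin or plakoglobin, which bind an alpha-catenin that links to actin. In the mammalian heart both kinds of junction mix in an area composita, where alpha-T-catenin also contacts plakophilin 2. Inherited defects of several of these genes cause arrhythmogenic cardiomyopathy, and desmin mutations cause desmin-related myopathy.

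The levels were given in FPKM, which counts fragments relative to transcript length and to the mapped fragments of the library, and levels were compared between genes on this scale per length. The order of levels is that of the values as deposited, in which each gene had also been shifted and scaled within sets of mice, as described below with the sets. Over all 24 mice Des had by far the highest mean level of these genes, 1410 FPKM, and ranked 30 among the genes of the table. The alpha-catenin Ctnna1 followed at 215 FPKM, ahead of Dsp at 158 FPKM, Jup at 134 FPKM and Ctnnb1 at 128 FPKM. Cdh2 had a mean of 72.7 FPKM and Pkp2 of 67.1 FPKM. The desmosomal cadherins were lower, with 19.5 FPKM for Dsg2 and 8.58 FPKM for Dsc2, and Ctnna3 was lowest at 7.63 FPKM. Neighbours in this order were not all separated: Jup exceeded Ctnnb1 in 15 of 24 mice, Cdh2 exceeded Pkp2 in 18, Dsc2 exceeded Ctnna3 in 18, and Dsp exceeded Jup in 21. The remaining neighbours kept their order in 24 of 24 mice.

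**Figure D1:**
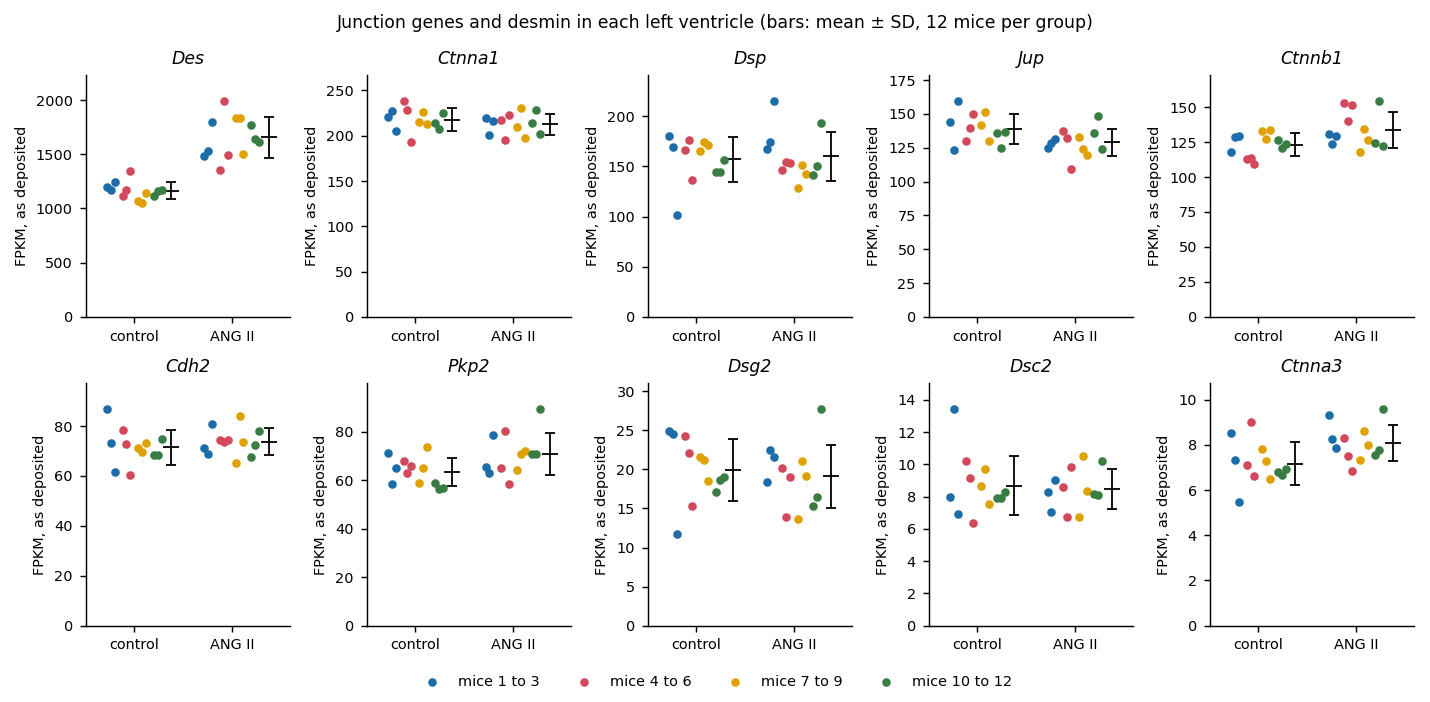
FPKM of each junction gene and of Des in every mouse, as deposited, with control mice at the left and ANG II mice at the right of each panel, colour for the set of mice, and bars for the mean ± SD of 12 mice. Only in the panel of Des do the groups not overlap, with ANG II mice at 1352 FPKM or more and control mice at 1350 FPKM or less.

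Of the 10 genes, Des was the only 1 whose difference between the groups passed an adjusted p of 0.05 (limma on log2 of FPKM + 1, Benjamini-Hochberg over 14026 tested genes), and it was higher in the hypertensive-LVH group. This rule called 33.5% of all tested genes, 20.9% of them as higher and 12.6% as lower, so that 1 call among 10 genes was below the share of the whole table. Des also had a log2 fold change over 0.5, the other criterion for a differentially expressed gene, which 5.92% of tested genes met together with the adjusted p, 4.52% as higher and 1.4% as lower in the hypertensive-LVH group. The median log2 fold change was 0.04 over the 10 genes and 0.05 over all tested genes.

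Des lies on chromosome 1 (75360329 to 75368579, plus strand, GRCm38, GENCODE vM21), and its longest coding transcript has 9 exons. Its level in control mice ran from 1051 to 1350 FPKM with a median of 1166 FPKM, and in ANG II mice from 1352 to 1996 FPKM with a median of 1628 FPKM. The groups did not overlap, although the lowest ANG II mouse (mouse 4) and the highest control mouse (mouse 6) were almost level. Among all tested genes, 0.271% had every ANG II mouse above every control mouse, and 0.756% had separate groups in either direction. The mean was 1655 ± 192 FPKM (SD, n = 12) against 1164 ± 79.3 FPKM in controls (n = 12). This was a fold change of 1.42 (95% interval 1.30 to 1.54), or 0.50 on the log2 scale with an SE of 0.06 (limma adjusted p = 3.03e-06). By its p Des ranked 45 of the tested genes. The log2 fold change was just over the threshold of 0.5, and it fell under it at 0.45 with median-ratio scaling of the libraries, while the adjusted p passed with every scaling tried.

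The sequence upstream of Des is shown because Des was the gene of this group that differed between the mice. The 250 bases before its RefSeq start (GRCm38.p6, chr1:75360042-75360291, plus strand) hold the E-box letters CANNTG at 2 places, marked in capitals. A single strand was searched, and the pattern reads alike on both.
Des, upstream: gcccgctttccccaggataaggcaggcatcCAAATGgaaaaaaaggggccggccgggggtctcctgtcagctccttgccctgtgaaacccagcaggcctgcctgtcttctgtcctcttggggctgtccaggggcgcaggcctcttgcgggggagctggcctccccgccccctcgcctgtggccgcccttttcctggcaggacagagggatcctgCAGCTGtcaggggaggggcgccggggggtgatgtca
The capitals nearer the start, 36 bases before it, spell CAGCTG, a form of the E-box that lies within the wider pattern. The wider pattern was present in 66.2% of 32851 promoter windows of this length and the narrower form in 13%, so the letters alone are common. Windows of only 5 of the 10 genes were searched. The wider pattern was found in the window of Des and in 1 of the windows of Ctnna3. It had no match in those of Dsp, Jup or Ctnnb1. The windows of the remaining genes were not searched, so whether they hold the pattern was not tested.

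The desmosomal plaque genes did not pass the test. Dsp, the linker to desmin, had 101 to 180 FPKM in control mice with a median of 166 FPKM, and 128 to 216 FPKM in ANG II mice with a median of 152 FPKM. Control mouse 3 held the lowest value and the groups overlapped throughout. The log2 fold change was 0.03 (95% interval -0.15 to 0.20, adjusted p = 0.831), and its sign turned to -0.02 with median-ratio scaling.

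Pkp2, the plakophilin of the cardiac desmosome, had 56.2 to 73.8 FPKM in control mice with a median of 64.1 FPKM, and 58.3 to 89.3 FPKM in ANG II mice with a median of 70.7 FPKM. In ANG II mice 10 of 12 lay above the control median, and the groups overlapped. With a log2 fold change of 0.15 (95% interval 0.03 to 0.27), Pkp2 had an adjusted p of 0.0539 by limma. ANG II mouse 12 had the highest value of Pkp2.

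Jup, the plakoglobin shared by desmosomes and adherens junctions, had 123 to 160 FPKM in control mice with a median of 138 FPKM, and 109 to 148 FPKM in ANG II mice with a median of 130 FPKM. Of the ANG II mice, 1 of 12 lay above the control median. At a log2 fold change of -0.10 (95% interval -0.20 to -0.01), Jup missed the threshold in limma (adjusted p = 0.0875).

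The desmosomal cadherins, whose outer domains bind those of the next cell, had wide spreads that overlapped. Dsg2 ran from 11.7 to 24.9 FPKM in control mice (median 20.1 FPKM) and from 13.7 to 27.7 FPKM in ANG II mice (median 19.1 FPKM), with a log2 fold change of -0.05 (95% interval -0.29 to 0.18, adjusted p = 0.732). Dsc2 ran from 6.37 to 13.4 FPKM in control mice (median 8.16 FPKM) and from 6.72 to 10.5 FPKM in ANG II mice (median 8.34 FPKM), with a log2 fold change of -0.02 (95% interval -0.21 to 0.16, adjusted p = 0.872). The coefficient of variation in the control group was 20.1% for Dsg2 and 21.3% for Dsc2, against 6.81% for Des and 5.77% for Ctnna1.

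Of the adherens junction genes none passed the test either. Cdh2, the N-cadherin, ran from 60.3 to 86.8 FPKM in control mice (median 72.0 FPKM) and from 65.4 to 84.0 FPKM in ANG II mice (median 73.7 FPKM). Its log2 fold change was 0.05 (95% interval -0.06 to 0.15, adjusted p = 0.507), and its sign was not stable under median-ratio scaling, where the value was -0.00377. Ctnna1, the alpha-catenin found in most tissues, was the steadiest of the 10 genes. It ran from 193 to 239 FPKM in control mice (median 218 FPKM) and from 195 to 231 FPKM in ANG II mice (median 215 FPKM), with a log2 fold change of -0.03 (95% interval -0.11 to 0.04, adjusted p = 0.496).

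Ctnna3, the heart-rich alpha-catenin, had 5.48 to 9.00 FPKM in control mice with a median of 7.03 FPKM, and 6.84 to 9.58 FPKM in ANG II mice with a median of 7.95 FPKM. Although the groups overlapped, 11 of 12 ANG II mice lay above the control median. The log2 fold change of 0.15 (95% interval 0.03 to 0.28) had an adjusted p of 0.0527 by limma, close to the threshold.

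Ctnnb1, which also carries Wnt signals to the nucleus, had 110 to 134 FPKM in control mice with a median of 125 FPKM, and 118 to 155 FPKM in ANG II mice with a median of 130 FPKM. Of the ANG II mice, 8 of 12 were above the control median. Its log2 fold change was 0.12 (95% interval 0.02 to 0.22) and the adjusted p by limma was 0.0609.

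Exact ties between mice divided each group into 4 sets, mice 1 to 3, 4 to 6, 7 to 9 and 10 to 12. Before deposit the values of a gene in a set had been scaled by a shared factor and shifted. By the recovery described below, the shift differed between the groups. The source of the sets is not given in the sources used here. Des was higher in ANG II mice in every set, with log2 differences of 0.41, 0.40, 0.66 and 0.54 in that order of the sets. In each set the 3 ANG II mice were all above the 3 control mice. Ctnnb1 had the smallest interaction p of the 10 genes: the difference was 0.40 in mice 4 to 6 but 0.03, -0.06 and 0.11 in the other sets (limma interaction of group and set, p = 0.00408, adjusted p = 0.0522). No interaction of the 10 genes passed an adjusted p of 0.05 (that of Ctnnb1 alone had an unadjusted p under 0.05), and 7.49% of all tested genes did.

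The remaining genes fell into those with a like sign in the sets and those without. Ctnna1 was lower in ANG II mice in 4 of 4 sets, between -0.06 and -0.01 on the log2 scale. Pkp2 was higher in 4 of 4 sets, by 0.41 in mice 10 to 12 and by 0.04 to 0.09 in the others. Ctnna3 was higher by 0.24 in mice 1 to 3, by 0.13 in mice 7 to 9 and by 0.25 in mice 10 to 12, with almost no difference in mice 4 to 6. Jup was lower by 0.14 to 0.17 in the first 3 sets, and the difference was 0.04 in mice 10 to 12. The difference in Dsp ran from -0.28 in mice 7 to 9 to 0.34 in mice 1 to 3, the set that holds control mouse 3.

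**Figure D2:**
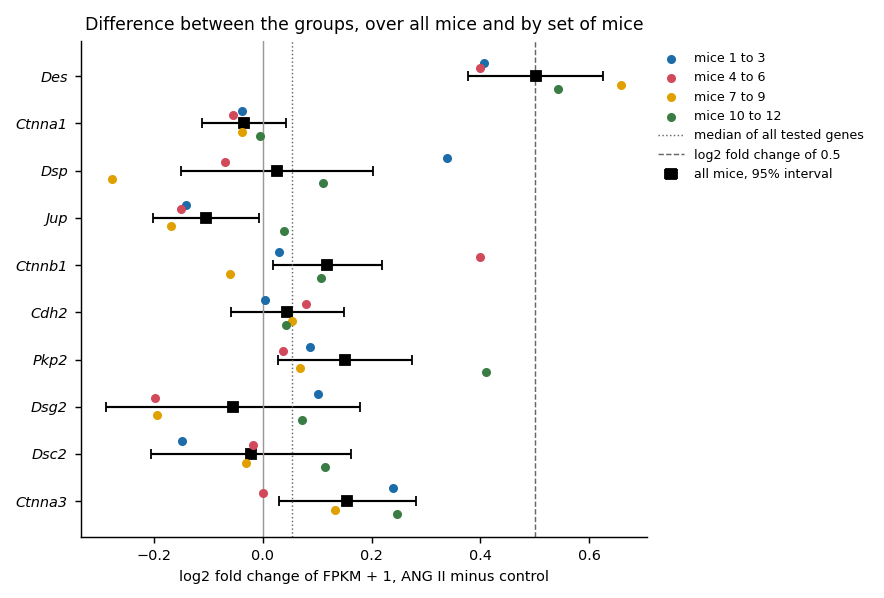
Log2 fold change of FPKM + 1, ANG II minus control, with squares and 95% intervals from limma for all 24 mice, coloured points for the 4 sets of mice, a dotted line at the median of all tested genes and a dashed line at 0.5. The points of Des lie between 0.40 and 0.66, whereas those of Dsp run from -0.28 to 0.34 and that of Ctnnb1 in mice 4 to 6 stands at 0.40 apart from its other sets.

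When the labels were exchanged only within the sets, in all 160000 ways, the exact two-sided p was 1.25e-05 for Des. The unadjusted exact p was 0.0228 for Ctnna3, 0.0310 for Pkp2, 0.0337 for Ctnnb1 and 0.0474 for Jup. For the other 5 genes it ran from 0.347 for Ctnna1 to 0.837 for Dsc2.

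The scaling within a set could be undone for all 10 genes, because the spacing of their values in a set gave a single solution for the size of an original step of 0.01 FPKM. This returned the differences between mice of a set, but not the offset of the set. The recovered scale factors of these genes ran from 0.563 to 1.712. Each solution also held a difference between the groups that was set aside from the scaling, 581 FPKM in Des. Differences and tests as deposited therefore mix this value with the scaled difference of each set. Before the adjustment the ANG II mice exceeded the control mice in Des by 385, 353, 614 and 542 FPKM in the 4 sets, with a mean of 474 FPKM against 491 FPKM as deposited (exact permutation within the sets, two-sided p = 2.5e-05). The groups were separate in 3 of 4 sets before and in 4 of 4 after. Over the 10 genes, 40 of 40 set comparisons kept their direction.

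The recovered differences of Dsp, Dsg2 and Dsc2 moved more than those of the other genes relative to their size. In Dsp the mean difference was 12.2 FPKM before the adjustment and 2.73 FPKM after, which did not pass either way (exact p on the FPKM scale 0.501 before and 0.803 after). In Dsg2 it was -0.33 FPKM before and -0.80 FPKM after (exact p on the FPKM scale 0.882 and 0.652). In Dsc2 it was -0.44 FPKM before and -0.20 FPKM after (exact p on the FPKM scale 0.718 and 0.786). In Jup the exact p on the FPKM scale was 0.0600 before and 0.0475 after, on either side of 0.05.

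**Figure D3:**
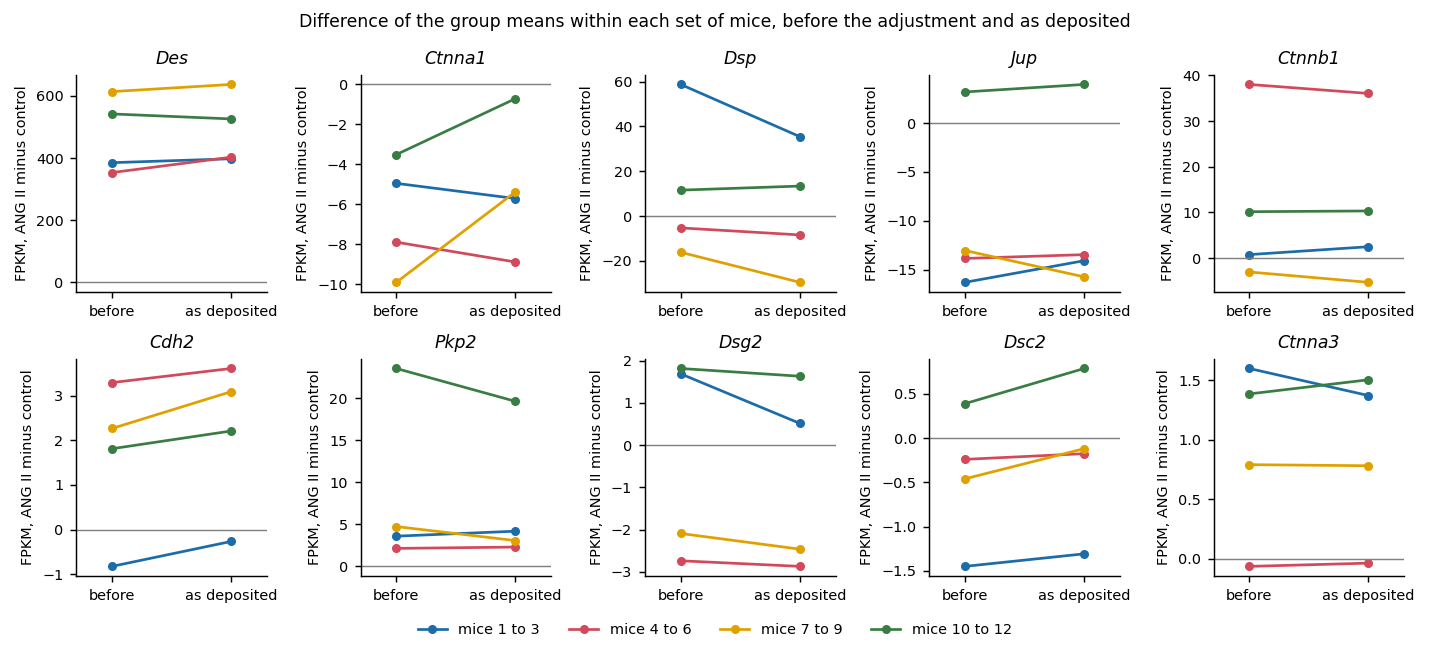
Difference of the group means in FPKM, ANG II minus control, within each set of 3 and 3 mice, as recovered before the adjustment and as deposited, with a line for each set and a scale of its own in each panel. No line crosses 0, and the lines of Des start between 353 and 614 FPKM.

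Ratios between members with a shared place in the junction were compared in each mouse. A plain ratio does not depend on a factor common to a library. Here such a factor need not cancel fully, because each gene had been adjusted on its own within the sets and the log2 ratios used FPKM + 1. The 5 ratios were tested by two-sided permutation over all mice with adjustment over the 5. The ratio of Jup to Ctnnb1, the armadillo proteins that both bind N-cadherin, had a mean of 0.971 ± 0.105 in ANG II mice and 1.13 ± 0.121 in control mice (SD, n = 12 each). No ANG II mouse (0 of 12) lay above the control median, and the log2 difference of -0.22 passed the test (adjusted p = 0.0034). It was -0.55 in mice 4 to 6 and between -0.17 and -0.07 in the other sets. Without mice 4 to 6 it was -0.11 and the permutation p was 0.0582, past the threshold no longer.

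The ratio of Ctnna3 to Ctnna1, the heart-rich to the general alpha-catenin, was 0.0381 ± 0.0044 in ANG II mice and 0.0329 ± 0.0037 in control mice. It was above the control median in 11 of 12 ANG II mice, with a log2 difference of 0.19 (permutation adjusted p = 0.00707). The difference was positive in 4 of 4 sets, from 0.06 to 0.28. Ctnna3 followed the length index of the libraries described below (r = 0.815), whereas r was 0.273 for Ctnna1, and with that index as a term the log2 difference of the ratio was 0.12 (permutation p = 0.0225, unadjusted).

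The ratio of Des to Dsp, the filament to its anchor, was 10.6 ± 2.01 in ANG II mice and 7.63 ± 1.79 in control mice. All 12 of 12 ANG II mice were above the control median (log2 difference 0.48, permutation adjusted p = 0.0034). The sets differed in size, from 0.07 in mice 1 to 3 to 0.94 in mice 7 to 9. The other 2 ratios did not pass: Pkp2 to Dsp differed by 0.12 (adjusted p = 0.227) and Dsc2 to Dsg2 by 0.03 (adjusted p = 0.70) on the log2 scale by the permutation test. With the length index as a term Pkp2 to Dsp differed by 0.24 (permutation p = 0.00293, unadjusted).

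**Figure D4:**
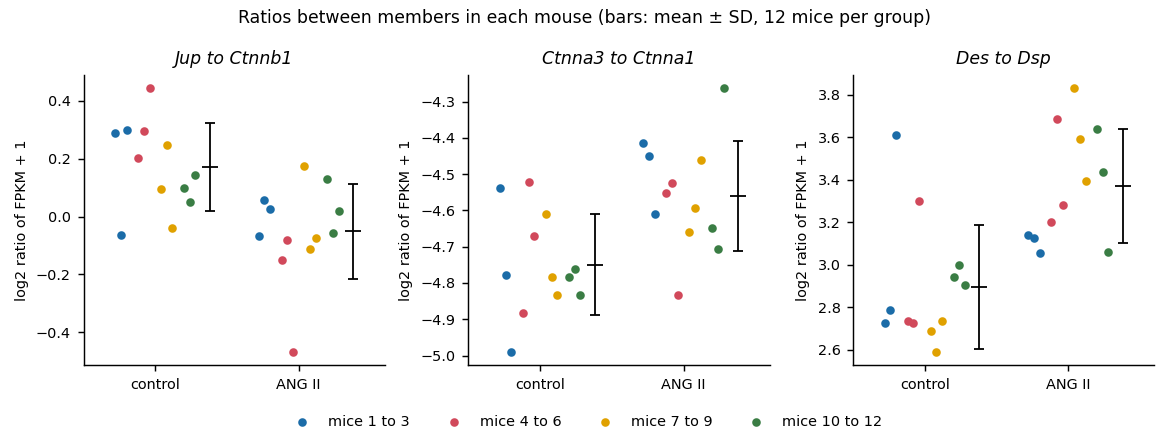
Log2 ratio of FPKM + 1 in each mouse for Jup to Ctnnb1, Ctnna3 to Ctnna1 and Des to Dsp, with colour for the set of mice and bars for the mean ± SD of 12 mice. The mean differences are -0.22, 0.19 and 0.48, and in each panel some mice of the groups overlap.

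Marker lists of cell types were set beside these genes, although bulk levels of markers do not show which cells hold a member. The counts of called markers stand beside the 33.5% of all tested genes called by limma, 20.9% as higher and 12.6% as lower. The summed level of 12 cardiomyocyte markers was 41017 to 59457 FPKM in ANG II mice and 53328 to 68124 FPKM in control mice, all far from 0. By limma 6 of the 12 were lower and 1 was higher, with a median log2 fold change of -0.27 that turned to 0.05 under quantile normalization. Troponin I (Tnni3) had the largest decrease, -0.63, and Mybpc3 was the marker that was higher, by 0.21 on the log2 scale, a call lost in 6 of 15 alternatives. Des amounted to 3.31% ± 0.538 of the summed cardiomyocyte markers in ANG II mice and 1.87% ± 0.159 in control mice (SD, n = 12 each). The groups did not overlap, at 2.53% or more against 2.20% or less. The log2 difference of 0.81 had a permutation p of 1e-05, the smallest that 100000 resamples can give. Des alone differed by 0.50, and 6 of the 12 markers in the divisor were themselves called lower. This comparison was added after the data were seen.

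Smooth muscle cells and pericytes also make desmin. Of their 10 markers 4 were higher and 1 was lower (median log2 fold change 0.23), with Tagln the largest increase (1.32, not past the threshold in 8 of 15 alternatives) and Kcnj8 the decrease (-0.58), and leaving out mice 4 to 6 left 1 in each direction. Their summed level was 338 to 559 FPKM in ANG II mice and 263 to 448 FPKM in control mice. None of these markers had a mean near 0, though Tagln was negative in 1 mouse and Cnn1 in 2. Des exceeded that sum in every mouse, at 382% ± 78.1 of it in ANG II mice and 318% ± 67.9 in control mice, a log2 difference of 0.26 (permutation p = 0.0372, and 0.0531 with exchange within the sets only). This comparison was added after the data were seen, and the part of smooth muscle cells in the level of Des was not tested.

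With all mice, fibroblast and macrophage markers were called more often than the 33.5% of all tested genes, and endothelial and mesothelial markers less often. Fibroblast markers were higher in 5 of 10 (Col1a1 most, 2.77 with 3 negative values set to 0; median of the list 0.45), with a summed level of 789 to 2887 FPKM in ANG II mice and 100 to 1135 FPKM in control mice, and without mice 4 to 6 their median was 0.17 and 1 of 10 passed, Col1a1 at 0.77. Macrophage markers were higher in 9 of 10 (Cd68 most, 0.92; median 0.61), at 327 to 928 FPKM against 239 to 532 FPKM. Without mice 4 to 6 their median was 0.41, and 0 of 10 passed by limma, though 5 had an unadjusted p under 0.05. Of the endothelial markers Pecam1 was higher (0.37) and Kdr lower (-0.23, lost in 6 of 15 alternatives) of 10, with a median of 0.01 that was -0.04 with median-ratio scaling. Of 9 mesothelial markers 0 passed by limma or by the rank-sum test, and 0 had an unadjusted p under 0.05. Without mice 4 to 6, 1 of the 9 passed as higher by limma, and their median was -0.18 (-0.02 with all mice). Endothelial cells and fibroblasts also make N-cadherin, beta-catenin and alpha-E-catenin, and mice 4 to 6 are the set in which Ctnnb1 differed most. The part of these cells in the levels of Ctnnb1, Cdh2 and Ctnna1 was not tested. Of 5 hypertrophy markers 4 were higher (median 1.96), atrial natriuretic peptide (Nppa) most at 6.96 on the log2 scale with 7 negative values set to 0. Their summed level was 2971 to 7111 FPKM in ANG II mice and 101 to 7609 FPKM in control mice, so the highest sum was that of a control mouse. Without the log scale the means of Nppa were 2050 ± 1080 FPKM in ANG II mice and 432 ± 1482 FPKM in control mice (SD). Those of Col1a1 were 292 ± 137 FPKM and 86.7 ± 86.1 FPKM.

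Other genes of the junctions were taken from lists chosen by function, and their counts were read against the 33.5% of all tested genes called by the same rule. Of 6 further desmosomal genes tested 2 were higher and 0 lower, near that share, with a median log2 fold change of 0.14. Perp, a membrane protein of desmosomes, had 114 ± 11.3 FPKM in ANG II mice and 78.2 ± 6.05 FPKM in control mice, a log2 fold change of 0.53 (limma adjusted p = 5.02e-07), and its groups did not overlap. Pkp4, an armadillo protein related to the plakophilins, was higher by 0.18 (adjusted p = 0.0473), but passed in only 3 of 15 alternatives, and not with median-ratio scaling, quantile normalization or the rank-sum test. It was named after its value was seen.

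Of 21 further genes of the adherens junction and area composita 4 were higher and 1 lower, a share below that of all tested genes (median 0.06, and -0.01 under quantile normalization). The actin cross-linker alpha-actinin 1 (Actn1) had the largest increase, from 17.8 ± 4.98 to 31.7 ± 7.90 FPKM, a log2 fold change of 0.82 (adjusted p = 3.88e-04). Vinculin (Vcl), which binds alpha-catenin under tension, was higher by 0.21 (adjusted p = 0.00124). The p120 catenin (Ctnnd1) was higher by 0.22 (adjusted p = 0.0238) and the myofibril anchor Nrap by 0.34 (adjusted p = 0.0117). The call of Ctnnd1 was lost in 4 of 15 alternatives, among them the fit without mice 4 to 6, and that of Nrap in 3, among them median-ratio scaling. Tmem65, a mitochondrial inner membrane protein that has also been placed at the disc, went the other way, at -0.24 (adjusted p = 8.83e-04). Vcl, Ctnnd1 and Nrap were named after their values were seen.

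Among 21 partners of desmin and other intermediate filament genes 6 were higher and 1 lower with all mice. Their median was 0.15, and the count was again near the 33.5% of all tested genes. Without mice 4 to 6, 10 of the 21 were higher and 0 lower, whereas 2810 of all 14004 genes tested in that fit were called. Vimentin (Vim), the filament of fibroblasts, endothelial cells and leukocytes, rose most, from 172 ± 65.2 to 383 ± 123 FPKM (log2 fold change 1.19, adjusted p = 1.81e-04). Ldb3, a Z-disc protein, was lower, at -0.20 (adjusted p = 0.0391). This call was lost in 8 of 15 alternatives, among them quantile normalization (-0.09), the rank-sum test and the fit without mice 4 to 6 (-0.13). Filamin C (Flnc), an actin cross-linker of Z-discs and intercalated discs, was higher by 0.40 (adjusted p = 0.00661). Nestin (Nes), the lamins Lmna and Lmnb1 and the chaperone Dnajb6 made up the other 4 that were higher, between 0.24 and 0.51 on the log2 scale. The desmin chaperone Cryab and the cross-linkers Plec and Synm did not pass. Flnc, Nes, Lmna, Lmnb1 and Dnajb6 were named after their values were seen, as were the 3 that did not pass.

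The genes that dispose of beta-catenin or act with it in the nucleus were looked at beside Ctnnb1. Of 11 genes of the destruction complex 3 were higher and 1 lower (median 0.10), against 33.5% of all tested genes. The balance turned to 1 higher and 3 lower with quantile normalization, and was 1 and 1 with median-ratio scaling. As deposited the largest changes were those of the kinase Csnk1a1, higher at 0.20 (adjusted p = 0.0254, lost in 8 of 15 alternatives), and Gsk3a, lower at -0.10 (adjusted p = 0.0412, lost in 5). Of 11 TCF/LEF factors, co-activators and feedback targets 2 were higher and 1 lower (median 0.14). The feedback inhibitor Nkd2 had the largest increase, 0.64 (adjusted p = 0.0218), but at 3.23 ± 1.28 against 1.79 ± 0.959 FPKM, and without mice 4 to 6 its log2 fold change was 0.13. The co-activator Bcl9 was lower, at -0.17 (adjusted p = 0.0314, lost in 4 of 15 alternatives). Axin2, a feedback target often used as a readout of the pathway, did not pass, and was named after its value was seen.

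Libraries differed in how long and short transcripts were represented, and several members followed this. For each mouse a length index was computed as the median log2 deviation of 971 genes with transcripts over 6000 bases minus that of 1269 genes with transcripts under 1500 bases. Control mouse 3 stood apart at -0.629, with the next lowest control at -0.154, and the highest value was 0.399 in ANG II mouse 12. The medians were 0.0585 in ANG II mice and -0.0124 in control mice.

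Across the 24 mice, with values centred on the mean of their group and set, the level of Dsg2 rose with the length index with r = 0.881 (permutation p = 0.00279, adjusted over 10 relations 0.0139) and rho = 0.847 (p = 0.00312, adjusted 0.0156). Without the 2 mice farthest from the median of the index its r was 0.792. Ctnna3 had r = 0.815 (permutation p = 1.6e-04, adjusted 0.0016) and rho = 0.864 (p = 3e-05, adjusted 3e-04), and r = 0.716 without those 2 mice. Dsp, whose longest coding transcript of 9592 bases is the longest of the 10, had r = 0.854 (permutation p = 0.0129, adjusted 0.0324) and rho = 0.655 (p = 0.0222, adjusted 0.0406), and r = 0.70 without the 2 mice.

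Cdh2 had r = 0.690 (permutation p = 0.0109, adjusted 0.0324) and rho = 0.649 (p = 0.0121, adjusted 0.0405), and r = 0.585 without the 2 mice. Des went the other way and more weakly, with r = -0.314 (permutation p = 0.0170, adjusted 0.0340) and rho = -0.491 (p = 0.0244, adjusted 0.0406), and r = -0.349 without the 2 mice. These 5 genes passed for both coefficients. The relations held a like sign in each group, between 0.629 and 0.869 in ANG II mice and between 0.723 and 0.956 in control mice for the 4 positive genes. Jup had a larger negative r than Des, -0.544, but did not pass (permutation adjusted p = 0.139, and 0.115 for rho). Dsc2 had r = 0.620 (permutation adjusted p = 0.0910) and passed for rho alone (adjusted 0.0406).

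With the length index as a further term in limma, added after the data were seen, Des had a log2 fold change of 0.54 (adjusted p = 3.25e-06). Dsg2 then passed the test as lower in ANG II mice, at -0.24 (adjusted p = 0.00479), Dsp was at -0.11 and Cdh2 at -0.01. Ctnna3 was at 0.07 (adjusted p = 0.243), against 0.15 without this term. Whether the index stands for RNA quality or for library preparation was not tested.

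**Figure D5:**
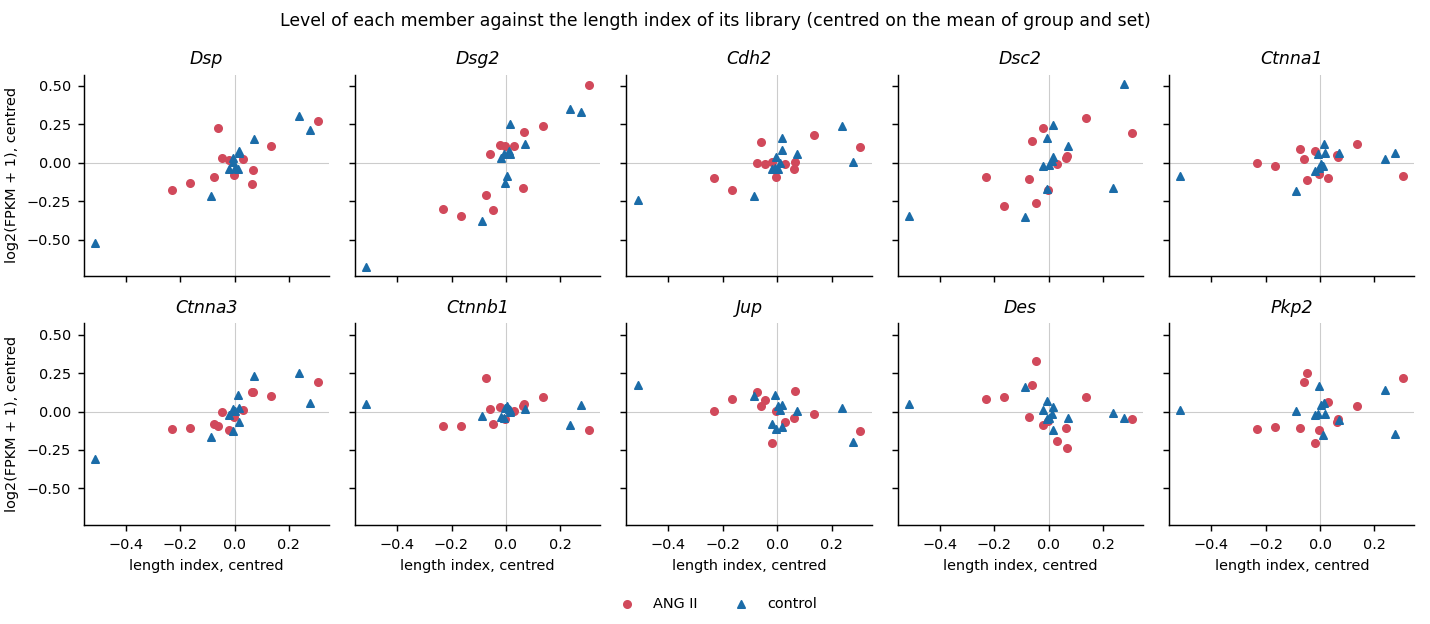
Log2 of FPKM + 1 of each gene against the length index of the library, both centred on the mean of group and set, with circles for ANG II and triangles for control mice. Dsg2, Dsp and Ctnna3 rise with the index (r from 0.815 to 0.881), Des falls weakly (r = -0.314), and the control mouse at the far left is control mouse 3. Jup also falls (r = -0.544) but did not pass the test.

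Among the 45 pairs of members, centred in the same way, 2 had correlations across the 24 mice that passed the adjusted permutation p for both coefficients. Dsp and Cdh2 had r = 0.852 (p = 3.2e-04, adjusted 0.0144) and rho = 0.852 (p = 4e-04, adjusted 0.0180), with r = 0.778 without the 2 mice farthest from the median of the first gene. Dsg2 and Cdh2 had r = 0.774 (permutation p = 0.00199, adjusted 0.0448) and rho = 0.758 (p = 0.00177, adjusted 0.0393), with r = 0.711 without 2 mice. With the length index removed the r of Dsp and Cdh2 was 0.697 and that of Dsg2 and Cdh2 was 0.485. The median r of all pairs was 0.0963.

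For each member the gene with the most similar pattern over the 24 mice was sought among 11455 genes with a mean of at least 1 FPKM, by Pearson's r of centred log2 values. The length index was not removed from these values, and its part in the likeness was not tested. The nearest to Des was cathepsin D (Ctsd, r = 0.833), and to Ctnnb1 it was Ddah2 (r = 0.926). For Dsp it was Rfc1 (r = 0.945), for Pkp2 Ctsf (r = 0.852) and for Jup Mecr (r = 0.867). For Dsg2 it was Pcnt (r = 0.968), for Dsc2 Isoc1 (r = 0.922) and for Cdh2 Ppm1k (r = 0.896). For Ctnna1 it was Serpine2 (r = 0.904) and for Ctnna3 Ccnt1 (r = 0.903). In no case was the nearest gene another member, and the closest to that was Cdh2, for which Dsp ranked 6.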

How the data were processed

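RNA from 24 left ventricles was selected with oligo(dT), fragmented, primed with random hexamers and sequenced. HISAT, Bowtie2 and RSEM are listed in the submitters' processing notes. The genome build and versions are not given in the sources used here. The authors deposited 1 FPKM value per gene and mouse. Of these values 2741 (0.766%) were negative, though none of the members', so the table is not plain FPKM. The sums ran from 460715 to 567727, no read counts were given, and depth is unknown. Replicates are separate mice. Tied genes (at least 100 per pair of mice) defined the 4 sets. In simulated data 169 of 200 genes had their scale recovered and 0 had a wrong one.

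Negative values were set to 0 for the log scale, log2(FPKM + 1). Adding 1 understates changes of low genes, whereas values set to 0 can enlarge the log2 fold change of a gene with high values in other mice. Genes with a mean of at least 0.1 FPKM (14026) were fitted with limma 3.58.1 with an intensity trend (R 4.3.3) on group alone. Differential expression was an adjusted p under 0.05, and with the further criterion an absolute log2 fold change over 0.5. Permutation tests drew 100000 resamples, exact tests within the sets used all 160000 relabelings, and permutations of correlations were made within each group of each set. Python 3.11.15, numpy 2.4.6, pandas 2.3.3, scipy 1.17.1 and matplotlib 3.10.9 were used. Transcript lengths were available for 99.5% of genes in GENCODE vM21.

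The members and lists were chosen with earlier results of these data known. The genes named are the members, the largest increase and decrease of each list past the threshold and any called gene against the direction of its list, and the nearest gene of each member. Genes named beyond this are marked as named after their values were seen. Alternatives were another pseudocount, filters, scalings, no trend, a rank-sum test, a term for the sets, the replicate number as a block, and leaving out each mouse or set. Pairing was checked: same-numbered mice of the groups had correlations of their deviations from -0.557 to -0.001, and 0 of 12 pairs were over 0.1. Same-numbered mice lie in the same set, whose values had been adjusted together, which by itself can make these correlations negative. The check therefore cannot tell whether the numbers pair mice. Added after the data were seen were a fit without control mouse 3 and ANG II mouse 12, the length index as a term (for the ratios by permuting residuals), the recovered differences and tests of FPKM without a log. Echocardiography, protein and docking data of the study were not used here.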

Additional observations from a re-analysis of the deposited data

How the results depend on the processing

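Des kept its direction and an adjusted p under 0.05 under every alternative run. With all mice 1 member passed the adjusted p. The count was 2 with a filter at a mean of 1 FPKM, without the trend, with the rank-sum test and without mice 4 to 6 (Ctnna3 joined in each), without mice 7 to 9 and without control mouse 3 and ANG II mouse 12 (Ctnnb1), without mice 10 to 12 (Jup), and with the length index as a term (Dsg2). By both criteria the count of members fell from 1 to 0 with median-ratio scaling and without mice 7 to 9 or 10 to 12, since the log2 fold change of Des was then 0.45 to 0.49. The replicate number as a block gave Des 0.50 with an adjusted p of 7.89e-04 and called 2824 genes (4697 without it) and 30 list genes (53 without it), and changed the call of no member. Without mice 4 to 6 the counts were 2810 genes, 553 by both criteria (831 with all mice) and 32 list genes, and a pseudocount of 0.1 gave 1489 by both criteria. Of called genes 62.3% were higher with all mice as deposited, 51.7% with median-ratio scaling and 39.6% with quantile normalization, and by both criteria 76.3%, 65.8% and 62.5%.

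Dsp turned to -0.023 with median-ratio scaling, -0.0781 without mice 1 to 3, -0.00216 without mice 10 to 12, -0.0557 without control mouse 3 and ANG II mouse 12 and -0.112 with the length index. Cdh2 turned to -0.00377 and -0.0104 with median-ratio scaling and the length index, and Dsc2 to 0.0215 without mice 1 to 3. The Jup to Ctnnb1 ratio was -0.11 (permutation p = 0.0582) without mice 4 to 6. Dsc2 to Dsg2 turned to -0.0152 without mice 4 to 6 and -0.00988 without mice 7 to 9, and was 0.13 (p = 0.0458) without mice 1 to 3, where Pkp2 to Dsp was 0.25 (p = 0.00262), and with the length index as a term Pkp2 to Dsp was 0.24 (p = 0.00293). The cause of these shifts was not tested.

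Leaving out each mouse in turn gave 1 to 4 members past the adjusted p and 0 to 1 by both criteria. Des passed in 24 of 24 fits, Pkp2 without ANG II mouse 2, 4, 6 or 7 or control mouse 1 or 9, Ctnna3 without ANG II mouse 6, 7 or 10 or control mouse 1, 5 or 7, Ctnnb1 without ANG II mouse 7, 10 or 12 or control mouse 9, and Jup without ANG II mouse 11 or control mouse 2. By both criteria Des was lost without ANG II mouse 3, 5, 7, 8 or 10 or control mouse 4, 7, 8, 9 or 10. It gave 41 to 58 list genes, 4038 to 5160 genes by adjusted p and 715 to 979 by both criteria. The log2 fold change of Des ran from 0.48 to 0.53, that of Dsp from -0.0295 to 0.0539 and that of Dsc2 from -0.055 to 0.0331. The ratio of Dsc2 to Dsg2 ran from -0.0046 to 0.0766 and that of Pkp2 to Dsp from 0.10 to 0.18, the latter past the threshold (p = 0.0187) without control mouse 3. For the ratios of Jup to Ctnnb1 it was -0.245 to -0.185, of Ctnna3 to Ctnna1 0.16 to 0.21 and of Des to Dsp 0.43 to 0.54. Members below about 10 FPKM rest on values for which no depth is known.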
